A study of Homo sapiens with 11 samples.

Results

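The genes described here encode the cytosolic ribosomal proteins, the protein components of the ribosome that translates messenger RNA in the cytoplasm. Members were chosen by symbol alone: RPL and RPS genes with their numbered A, X, L and L1 forms, the acidic stalk proteins RPLP0, RPLP1 and RPLP2, and RPSA and FAU. The knockdown table held 83 of them among 14457 gene names, and 71 of the same 83 were among the 11062 genes of the overexpression table. The 83 comprised 46 large subunit genes, 32 small subunit genes (FAU and RPSA included) and 5 paralogs whose symbols end in L or L1. The 12 genes of the knockdown table that the other did not list included RPL13A, RPL17, RPL21, RPL28, RPL32, RPS18 and RPS27A.

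All 11 RNA-seq libraries came from ARP1, an established human myeloma line of the IgA kappa type, and PHF19, a subunit of Polycomb repressive complex 2, was the gene manipulated. Per the titles, 3 libraries carried the PCDH empty vector (EV, replicates 3, 4 and 5) and 2 carried the PHF19 reading frame (OE, replicates 1 and 2). These cells had been infected with lentivirus packaged in HEK293T cells, and the overexpressing cells were sorted. In the second arm 3 libraries had a scramble control and 3 an shRNA against PHF19, each numbered 1 to 3, and neither the way the shRNA was delivered nor whether 1 hairpin was used throughout is stated. The genotype tag of these 6 libraries repeats the overexpression wording, so groups follow the titles. Whether replicates were separate cultures is not stated, so p-values measure only the spread between these libraries.

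Values are abundances of FPKM type, normalised by the authors for gene length and library size, and the headers name no unit. Read depth is unknown. PHF19 averaged 129 ± 20.3 in scramble and 95.3 ± 17.5 in shRNA libraries (SD, n = 3 each). The difference was -0.44 ± 0.17 (SE) on the log2 scale, with adjusted p = 0.147 in limma, or 0.0445 once equal replicate numbers were paired. It averaged 115 ± 4.12 in EV (n = 3) and 220 ± 9.63 in OE (n = 2), with a limma adjusted p of 0.0438. That p was 0.156 in the fit on genes with no 0, and as each library was left out it ran from 0.0349 (without EV 5) to 0.264 (without OE 1), passing only without EV 5. Of 13 listed plasma cell marker names, 10 were found in each table, with summed levels of 1832 to 2049 in scramble, 1461 to 1878 in shRNA, 2554 to 3559 in EV and 4386 to 11554 in OE libraries. IGJ, the immunoglobulin J chain, carried most of the difference between EV and OE, with a mean of 1775 in EV and 6230 in OE libraries. The OE mean of IGJ (n = 2) rests largely on 1 library, at 9837. Means in EV and OE were 518 and 577 for XBP1 and 208 and 255 for IRF4. TNFRSF17 and MZB1, which are among those markers, were each listed at 0 in EV libraries but in no OE library. These zeros enter the EV sums. Of 4 T cell, 3 monocyte, 3 mature B cell and 4 epithelial or HEK293T-like markers, the knockdown table listed 1, 3, 2 and 2 and the other table listed 0, 1, 1 and 1. Epithelial or HEK293T-like markers summed to 9.82 to 14.6 in scramble, 5.61 to 7.19 in shRNA, 4.56 to 7.38 in EV and 3.501 to 5.77 in OE libraries. The other lists summed to 6.17 or less in every library, with LYZ, a monocyte marker, averaging 0.0380 in EV and 3.28 in OE libraries. The OE values of LYZ were 0.396 and 6.17. In bulk RNA, fewer cells of a type and less RNA per cell cannot be told apart. The part of these marker differences in the ribosomal protein values was not tested. Sample descriptions end in F for OE and in S for EV, so group and letter cannot be told apart.

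A ribosome holds 1 copy of most ribosomal proteins, so cells make them in matched amounts, and unassembled copies are degraded. Their messenger RNAs are among the most abundant in a growing cell, and most begin with a 5′ terminal oligopyrimidine tract (TOP), a C followed by further pyrimidines, through which the kinase mTORC1 and the binding protein LARP1 set their translation and stability. Plasma cells and myeloma cells, which secrete large amounts of immunoglobulin, depend heavily on ribosomes. Many ribosomal protein genes also have processed pseudogenes of nearly the same sequence, so their quantification from short reads is uncertain for all values below.

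RefSeq start sites (GRCh38.p14) were matched for 67 of the 83 genes. A TOP start was counted where the first transcribed base is C and at least 4 further bases in a row are C or T, read on the transcribed strand only. It was found at some listed start of 48 of the 67 genes (71.6%), against 1404 of 27305 genes of all kinds (5.14%). By subunit it was found for 28 of 38 large subunit genes, 19 of 25 small subunit genes and 1 of 4 paralogs ending in L or L1. The windows set paralogs beside canonical partners and add RPS26, RPL12 and RPL13A, because the knockdown values of these genes are given in full further on. Each window runs from 15 bases before the start through the first 15 transcribed bases, with the TOP tract in capitals where one was found.
RPL22: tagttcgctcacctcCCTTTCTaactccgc
RPL22L1: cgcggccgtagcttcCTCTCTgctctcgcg
RPS27: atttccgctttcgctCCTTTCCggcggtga
RPS27L: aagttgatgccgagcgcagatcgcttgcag
RPL26: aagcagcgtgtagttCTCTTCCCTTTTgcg
RPL26L1: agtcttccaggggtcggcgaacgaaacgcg
RPL7L1: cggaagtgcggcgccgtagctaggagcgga
RPS26: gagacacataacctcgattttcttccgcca
RPL12: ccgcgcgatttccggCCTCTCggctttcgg
RPL13A: cgacaaaacctcctcCTTTTCCaagcggct

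In GRCh38.p14 the windows lie at chr1:6199581-6199610 on the minus strand for RPL22, chr3:170870181-170870210 (minus) for RPL22L1, chr1:153990747-153990776 (plus) for RPS27 and chr15:63157463-63157492 (minus) for RPS27L. Those of RPL26 and RPL26L1 lie at chr17:8383179-8383208 (minus) and chr5:172958714-172958743 (plus, the first of its listed starts). RPL7L1 has its window at chr6:42879601-42879630 (plus), RPS26 at chr12:56041903-56041932 (plus), RPL12 at chr9:127451392-127451421 (minus) and RPL13A at chr19:49487593-49487622 (plus). Among these, RPL22 and RPL22L1 both begin with a TOP tract, whereas RPS27L and RPL26L1 lack the tract that RPS27 and RPL26 have. RPS26 and RPL7L1 showed no such tract at the listed first base, which says only that these letters were not in that position of the window.

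In control cells the members spanned more than 2 orders of abundance. By mean FPKM in scramble libraries the highest were RPS2, a protein of the mRNA entry channel, at 3964 ± 567, RPS18 at 3547 ± 639, the stalk protein RPLP1 at 3443 ± 840, RPL41, the smallest ribosomal protein, at 3136 ± 926 and RPS27 at 2930 ± 1471 (SD, n = 3). The ranges of these 5 genes over the scramble libraries overlapped one another. The lowest were 3 paralogs, RPL22L1 at 15.9 ± 3.79, RPS27L at 24.95 ± 8.80 and RPL39L at 46.3 ± 7.52. In EV libraries, a separately normalised table, the order by mean was RPS27 at 6035 ± 582, RPL41 at 5796 ± 454, RPS2 at 3803 ± 464, RPLP1 at 3310 ± 400 and RPS25 at 2864 ± 201 (n = 3), among members with no 0. Neighbours in that order overlapped in range, except that every RPL41 value lay above every RPS2 value. The same 3 paralogs closed that list, with RPS27L at 32.3 ± 1.39, RPL22L1 at 52.3 ± 12.4 and RPL39L at 62.3 ± 1.89. All members together made up 24.2, 22.6 and 18.7% of the listed abundance in scramble libraries 1, 2 and 3, and 28.01, 22.7 and 21.98% in shRNA libraries 1, 2 and 3.

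The knockdown comparison asked whether less PHF19 goes with a different level of these messages. No member of 83 passed the threshold in limma (adjusted p under 0.05), where 5.51% of the 10900 genes tested did, and 4 members were higher and 2 lower at an unadjusted p under 0.05, against 24.1% of all genes. The log2 fold change, shRNA minus scramble on log2(FPKM + 1), was above 0 for 76 of 83 members (91.6%) and for 54.4% of all genes. Its median was 0.16 over the members and 0.03 over all genes. This direction rested on single libraries: without scramble 3 the median was -0.02 with 38 members above 0, without shRNA 1 it was 0.04 with 49 above 0, and with both left out, an alternative chosen after the data were seen, it was -0.13 with 17 above 0. Library weights also turned it, to -0.03.

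**Figure D1:**
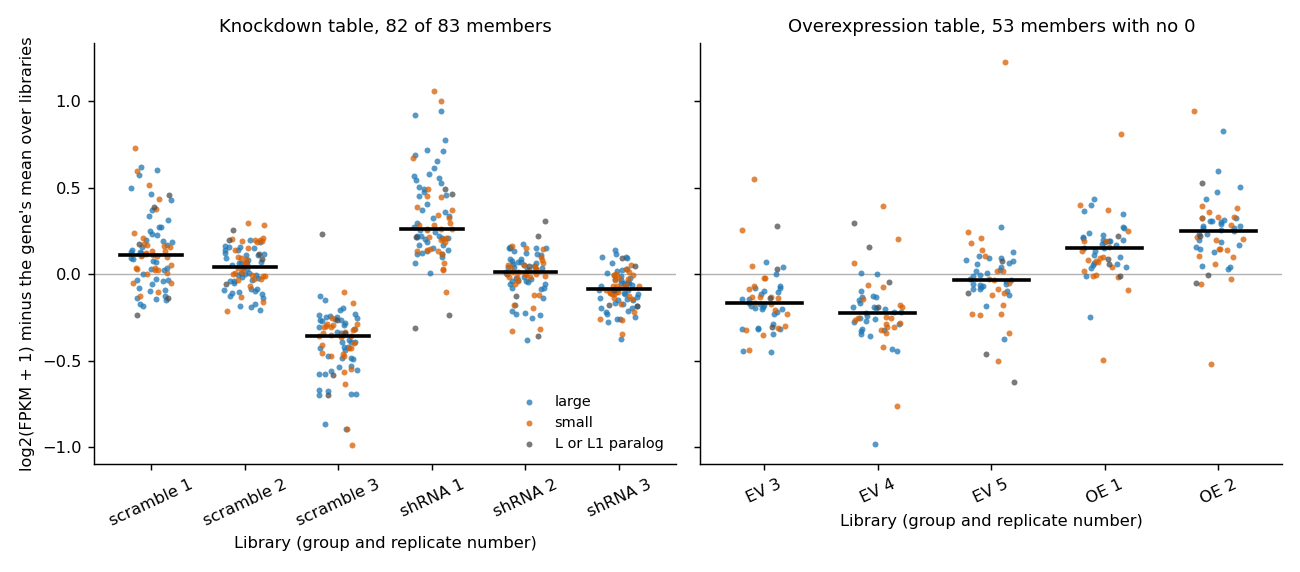
Each point is 1 ribosomal protein gene in 1 library, as log2(FPKM + 1) minus that gene's mean over the libraries of its table, and black bars are medians over genes. Medians in the knockdown table (left, 82 of 83 members drawn, those within the scale) run from -0.36 in scramble 3 to 0.26 in shRNA 1, and in the overexpression table (right, 53 members with no 0) from -0.22 in EV 4 to 0.25 in OE 2.

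The libraries of the knockdown table differed among themselves by more than the groups did. Relative to each gene's mean over the 6 libraries, the median member stood at 0.11, 0.04 and -0.36 in scramble 1, 2 and 3 and at 0.26, 0.01 and -0.08 in shRNA 1, 2 and 3 on the log2 scale. In scramble 3 only 2 of 83 members lay above their own mean, and in shRNA 1 this held for 79 of 83. All genes tested, by contrast, had library medians between -0.08 and 0.05. By replicate number, shRNA minus scramble had a member median of 0.22 for number 1 (73 of 83 above 0), -0.03 for number 2 (30 above 0) and 0.31 for number 3 (80 above 0). Libraries of equal number deviated alike from their group means over the 83 members, with Pearson's r of 0.967, 0.892 and 0.878, points that share library and gene length and carry no test. Numbers 2 and 3 were nearly as alike across numbers, at 0.840 for scramble 3 with shRNA 2 and 0.808 for scramble 2 with shRNA 3. Number 1 with either of the others gave -0.957 to -0.871. Deviations from a group mean sum to 0 for each gene, so these values are not independent of one another. The negative ones are largely a matter of that arithmetic, and no conclusion is drawn from them.

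Large and small subunit genes moved in parallel across these libraries. The large subunit medians were 0.12, 0.01, -0.39, 0.31, 0.02 and -0.09 from scramble 1 to shRNA 3, and the small subunit medians were 0.11, 0.06, -0.36, 0.26, 0.01 and -0.08. The median log2 fold change was 0.17 over the 46 large subunit genes, 45 of them above 0, and 0.14 over the 32 small subunit genes, 29 of them above 0. With each L or L1 paralog counted in its subunit the medians differed by 0.04, and without shRNA 1 by -0.02. The 5 paralogs had a median of -0.05, with 2 above and 3 below 0.

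Short genes differed widely between libraries. RPS27, a small subunit protein with a zinc finger, read 4500, 2705 and 1584 in scramble 1, 2 and 3 and 6539, 2741 and 2782 in shRNA 1, 2 and 3. RPS29, another short zinc finger protein, read 1034, 556 and 334 in scramble and 1248, 496 and 489 in shRNA libraries. In both genes libraries of number 1 were the high ones in either group, and the groups overlapped. Across the 83 members, the log2 difference between scramble 1 and scramble 3 correlated with log2 coding length (GENCODE v29 principal transcript) at Pearson's r = -0.35 and Spearman's rho = -0.66. For shRNA 1 minus the mean of shRNA 2 and 3 these were -0.18 and -0.47. All genes showed a correlation with coding length between scramble 1 and scramble 3 as well, r = -0.39 over 10564 genes, while for shRNA 1 it was -0.08.

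**Figure D2:**
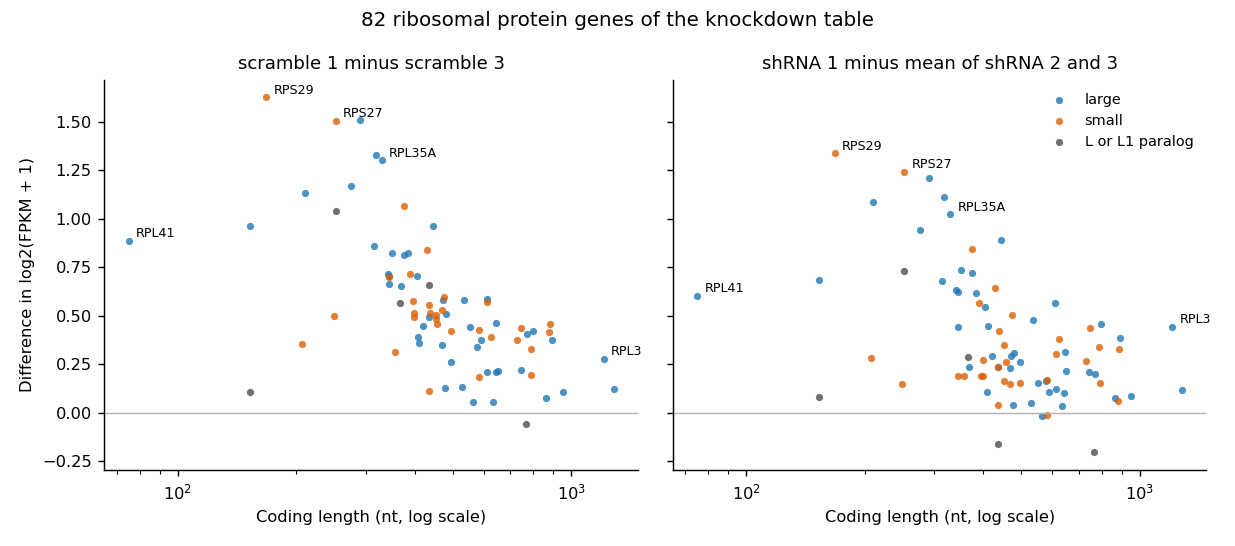
Difference in log2(FPKM + 1) between libraries of 1 group against coding length for 82 of the 83 ribosomal protein genes, those within the scale. Short genes such as RPS27 and RPS29 lie highest in both panels, long genes such as RPL3 lower, with Spearman's rho over all 83 of -0.66 (left) and -0.47 (right).

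Among the 29 shortest members ( 75 to 399 nt of coding sequence) the library medians were 0.27, 0.00 and -0.57 in scramble and 0.50, -0.06 and -0.14 in shRNA libraries. Among the 28 longest ( 564 to 1281 nt) they were 0.03, 0.00 and -0.29, and 0.22, 0.05 and -0.06. The median log2 fold change did not follow that gradient, at 0.20, 0.09 and 0.15 in the shortest, middle and longest members. The part of coding length in the library differences was not tested.

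The ribosomal stalk, which recruits and stimulates the translation factors that hydrolyse GTP, had the highest median of the functional groups listed for the large subunit (0.28, 4 of 4 above 0). RPL12, which sits at the stalk base, read 1128, 1201 and 941 in scramble and 1686, 1436 and 1382 in shRNA libraries. Every shRNA library lay above every scramble library. The log2 fold change of RPL12 was 0.46 ± 0.15 (SE), with a limma adjusted p of 0.105. It passed when equal replicate numbers were paired (adjusted p = 0.0417) and after quantile normalisation (adjusted p = 0.0402). RPLP0, the stalk's anchor, read 1926, 2064 and 1790 against 2471, 2371 and 2294, also without overlap, at 0.31 ± 0.14. RPLP1 and RPLP2 had log2 fold changes of 0.25 and 0.17 and overlapping groups.

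The proteins lining the nascent peptide exit tunnel lay near the member median. RPL4 was at 0.22 with groups that did not overlap, RPL17 at 0.20 and RPL39 at 0.20, both overlapping. RPL5 and RPL11, which carry the 5S rRNA and bind MDM2 when unassembled, were at 0.14 and 0.09, and RPL11 was at -0.09 without scramble 3. Among the rim of that tunnel, RPL31 had the highest value, 0.35, and RPL38 was at 0.10.

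RPL13A, a large subunit protein also known for a role in translational control outside the ribosome, read 2361, 2027 and 1573 in scramble and 3525, 2404 and 2354 in shRNA libraries. The lowest shRNA value lay just under the highest scramble value. Its log2 fold change was 0.47 ± 0.21 (SE), the second highest of all members, with a limma adjusted p of 0.204. It passed when equal numbers were paired, with an adjusted p of 0.0437. RPL3, which lies close to the peptidyl transferase centre, read 1478, 1303 and 1219 against 2093, 1547 and 1534, without overlap, at 0.36 ± 0.17.

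**Figure D3:**
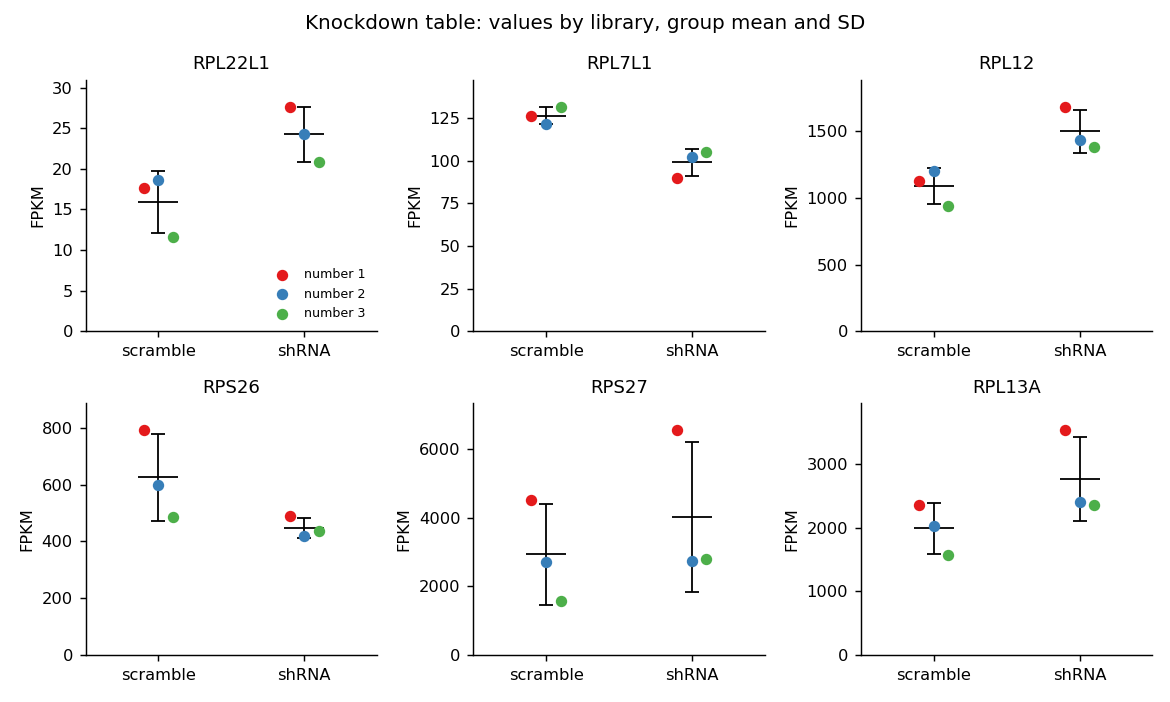
FPKM-type values of 6 members in the knockdown table, coloured by replicate number, with group mean and SD (n = 3, y axes from 0). RPL22L1 and RPL12 lie higher and RPL7L1 lower in shRNA libraries without overlap, while RPS26, RPS27 and RPL13A overlap between groups.

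RPS26, a small subunit protein of the mRNA exit channel, read 791, 598 and 487 in scramble and 488, 421 and 435 in shRNA libraries, and only the lowest scramble library fell within the shRNA range. Its log2 fold change was -0.45 ± 0.18 (SE), with a limma adjusted p of 0.157. The value ran from -0.62 to -0.27 as each library was left out. With library weights, which lower the influence of libraries that deviate across genes, the adjusted p was 0.00640. At the same site RPSA was at 0.09, RPS14 at 0.20 and RPS28 at 0.20.

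At the mRNA entry side RPS2 was at 0.15 and RPS3 at 0.17. FAU, made as a fusion of a ubiquitin-like protein to RPS30, was at -0.13, with values of 1299, 1269 and 924 in scramble and 1151, 973 and 1048 in shRNA libraries. RPS27A, the fusion of ubiquitin to a small subunit protein, was at 0.08. RPS6, the substrate of S6 kinase, was at 0.20, and RPS19, the gene first linked to Diamond-Blackfan anaemia, at 0.10. Of 19 members mutated in that disorder, 16 were above 0, with a median of 0.09.

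Paralogs ending in L or L1 split. RPL22L1, the paralog of the RNA-binding protein RPL22, read 17.6, 18.6 and 11.6 in scramble and 27.6, 24.2 and 20.8 in shRNA libraries. The groups did not overlap, and the log2 fold change of 0.59 ± 0.18 (SE) was the highest of all 83. Its limma adjusted p was 0.0891, the smallest among members, and 0.0183 in the fit with paired numbers. RPL22 itself read 205, 152 and 115 against 229, 158 and 140, with overlapping groups and a log2 fold change of 0.17.

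RPL7L1, a nucleolar homologue of RPL7 needed for ribosome assembly, went the other way. It read 126, 121 and 132 in scramble and 89.6, 102 and 105 in shRNA libraries, without overlap. The difference was -0.35 ± 0.12 (SE) on the log2 scale, with adjusted p = 0.107 in limma. RPL7 was at 0.06, and at -0.09 after quantile normalisation. RPL26L1 was at -0.25 beside 0.28 for RPL26, RPS27L at -0.05 beside 0.46 for RPS27, and RPL39L at 0.32 beside 0.20 for RPL39.

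Across the 83 members, 7 had shRNA values wholly above scramble and 1 wholly below, that is 8.43% and 1.20%, where 18.9% and 13.0% of all genes tested did so. The 7 were RPL3, RPL4, RPL10, RPL12, RPL15, RPLP0 and RPL22L1, all of the large subunit or its paralog, and the 1 was RPL7L1. RPL10, RPL15 and RPL35 (named with both arms) were named after their values were seen. With the replicate number as a block, 3 members passed as higher (RPL12, RPL13A and RPL22L1, 3.61%) and 0 as lower in limma, where 8.2% and 3.68% of all genes did. With library weights 3 members passed as lower (RPS26, RPL7L1 and RPL26L1), where 10.6% of all genes did. None of these shares exceeded that of all genes. The authors' deposited table, by contrast, gave a p under 0.05 to 74 of 83 members and to 61.2% of all genes, from a test that is not described.

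**Figure D4:**
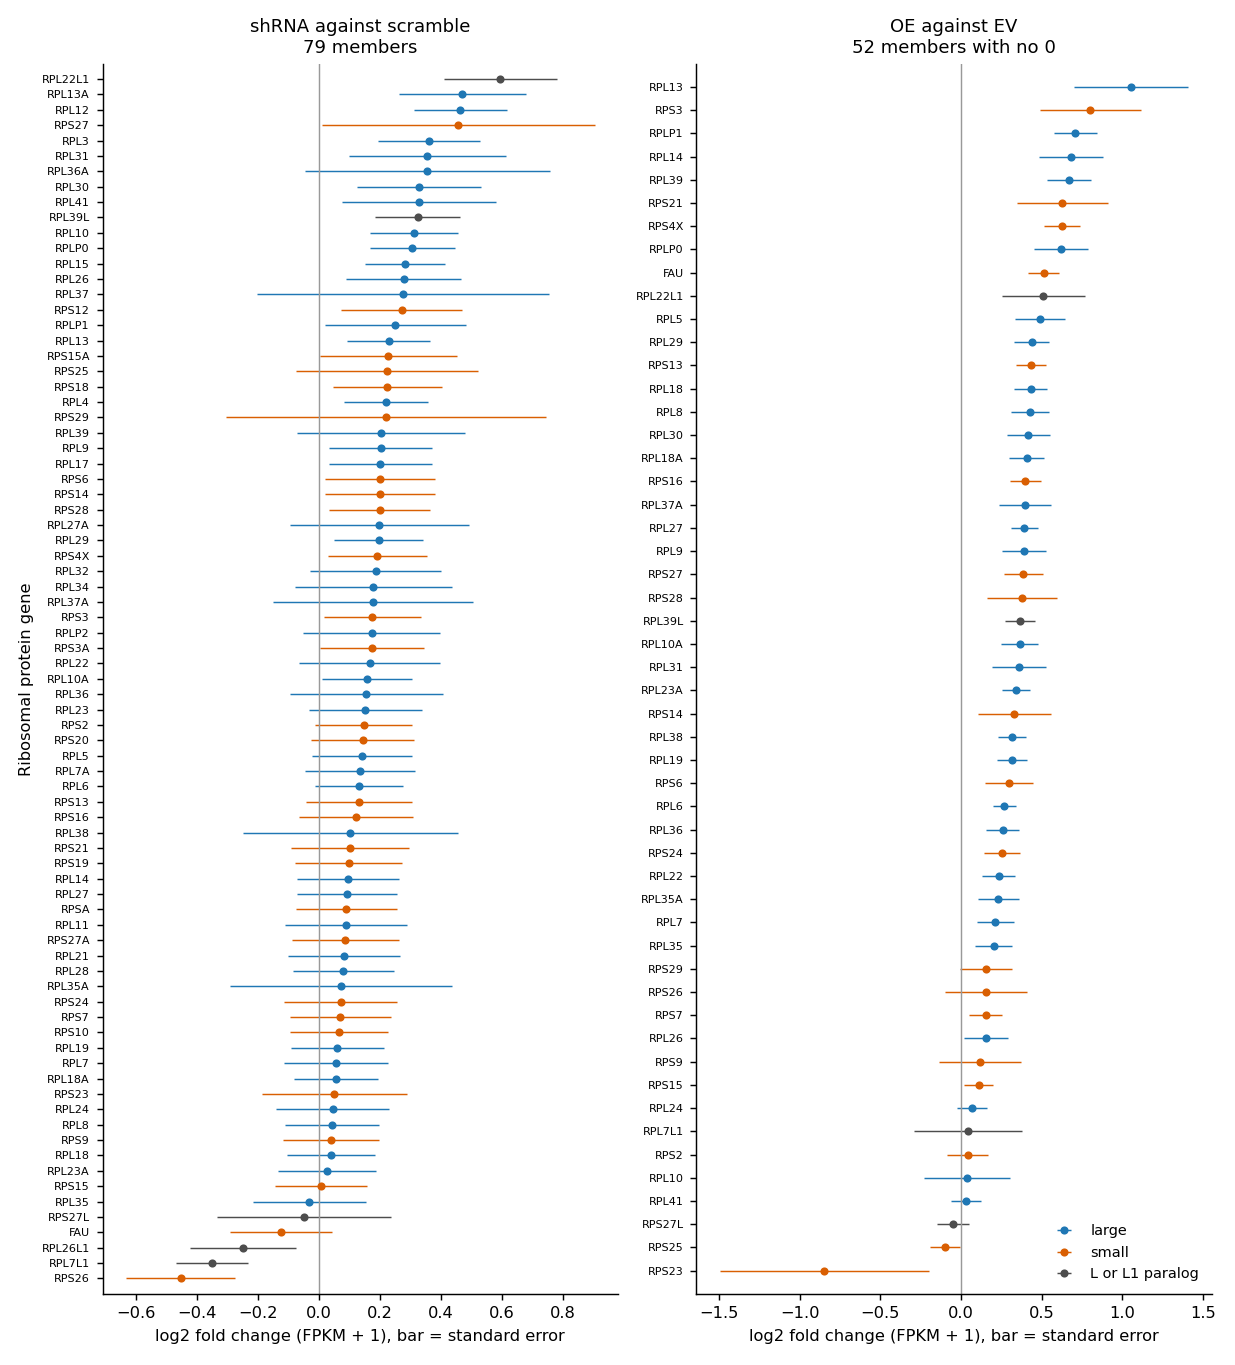
Log2 fold changes with standard errors for 79 members of the knockdown table (left) and 52 members of the overexpression table with no 0 (right), coloured by subunit. Most points lie above 0 in both panels, and none passed the limma threshold. Over all 83 the median is -0.02 without scramble 3. Over all 53 the median is -0.0046 after quantile normalisation and 0.28 with median-of-ratios scaling.

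The overexpression comparison asked the same of cells with more PHF19. Fold changes are given for the 53 members with a value above 0 in every library. In limma 0 of the 53 passed, where 0.914% of the 10279 genes tested did. At an unadjusted limma p under 0.05, 25 were higher and 0 lower, against 11.5% of the 10279. Unlike the 53, the 10279 include genes with a 0. In the fit on genes with no 0, 0 genes passed. The log2 fold change, OE minus EV, was above 0 for 50 of 53 members and 59.4% of genes with no 0, with a median of 0.36 over the members and 0.07 over those genes, and after quantile normalisation the member median was -0.0046 with 26 above 0. For 36 members (67.9%) both OE libraries lay above all EV libraries, and for 0 below, where 23.3% and 12.0% of genes with no 0 did so. With library weights 29 of the 53 passed as higher, where 12.0% of the 10279 genes did, those with a 0 included.

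Those values depended on how the libraries were scaled. The listed abundance summed to 425155 to 426112 in EV and 498485 to 502349 in OE libraries, and the part outside the ribosomal proteins to 309911 to 328889 and 366435 to 366601. Scaling to that outside part moved the median of all genes tested from 0.09 to -0.08 and the member median from 0.36 to 0.18, with 39 of 53 above 0. With median-of-ratios scaling the medians were 0.02 for all genes tested and 0.28 for members, with 45 of 53 above 0. Relative to all genes the member median stood 0.27 higher as deposited and 0.27 higher with median-of-ratios scaling. It stood 0.25 higher after scaling to the outside part and 0.04 higher after quantile normalisation. As a share of listed abundance the 53 members made up 20.8, 19.9 and 23.4% in EV 3, 4 and 5 and 22.2 and 23.9% in OE 1 and 2, so the groups overlapped.

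By part of the ribosome, the 2 of 4 stalk genes with no 0, RPLP0 and RPLP1, held high values. RPL12 and RPLP2 had a 0 and so no fold change. RPLP1 read 3238, 2952 and 3742 in EV 3, 4 and 5 and 5097 and 5692 in OE 1 and 2, without overlap. Its log2 fold change was 0.71 ± 0.13 (SE), with a limma adjusted p of 0.236. RPLP0 read 1434, 1604 and 1941 in EV and 2359 and 2716 in OE libraries, at 0.62 ± 0.17. RPL39, in the exit tunnel, read 2223, 2052 and 2658 against 3564 and 3746, at 0.67 ± 0.14, and RPL5 read 777, 774 and 1009 against 1166 and 1213, at 0.49 ± 0.15. RPL39, RPL5 and RPS4X, the last named after its values were seen, passed in limma when EV 5 was left out.

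The highest log2 fold change of the 53 was that of RPL13, a large subunit protein, at 1.05 ± 0.35 (SE), with values of 2092, 1344 and 2775 in EV and 3598 and 4721 in OE libraries. RPS3, at the mRNA entry and also a DNA repair protein, followed at 0.80 ± 0.32, but its OE libraries differed widely, at 1928 and 3652, over EV values of 1405, 1420 and 1766. RPL14 was at 0.68 and RPS21 at 0.63, the latter with OE values of 3437 and 1877 over EV values of 1606 to 1664.

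The 6 lowest of the 53 were RPS23, RPS25, RPS27L, RPL41, RPL10 and RPS2. RPS23, at the decoding centre, read 793, 319 and 1269 in EV and 384 and 376 in OE libraries, so the OE values lay inside a wide EV range, and its log2 fold change was -0.85 ± 0.65 (SE). RPS25 was at -0.10 and RPS27L at -0.05. RPL41, RPL10, RPS2 and RPL7L1 were at 0.03, 0.03, 0.04 and 0.04, and each of these 4 was below 0 under quantile normalisation, median-of-ratios scaling and scaling to the non-ribosomal sum. RPS26 was at 0.15, with EV values of 473, 413 and 279 and OE values of 417 and 427. FAU, at 0.51, read 1161, 1072 and 1086 in EV and 1678 and 1479 in OE libraries. The medians were 0.36 over 29 large subunit genes, all 29 above 0, and 0.31 over 20 small subunit genes, 18 above 0, and under quantile normalisation the large minus small difference, with L or L1 paralogs counted in their subunits, was 0.15 in place of 0.07.

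Among the paralogs of this table, RPL22L1 read 47.9, 66.3 and 42.8 in EV and 63.2 and 85.8 in OE libraries, at 0.51 ± 0.26, with overlapping groups. RPL39L read 62.6, 60.3 and 64.0 in EV and 80.4 and 80.5 in OE libraries, at 0.36 ± 0.09, without overlap. RPL22 was at 0.23, RPL26 at 0.15 and RPS27 at 0.39.

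The remaining 18 members of the overexpression table were listed at exactly 0 in some library. None of the 83 was at 0 in any knockdown library. RPL3 and RPL4, which read 1219 to 2093 and 1704 to 2235 in the knockdown table, were listed at 0 in all 5 libraries, yet the authors' deposited table gives RPL3 a p of 0.00454 and RPL4 a p of 0.0746. RPSA and RPS15A were above 0 in OE 1 alone, at 1932 and 2773, and RPS19 in EV 5 alone, at 1253. RPL11 read 1933, 1733 and 2006 in EV and was listed at 0 in both OE libraries. It was the 1 of 13 such members tested that passed in limma, with an adjusted p of 0.000197, a value that rests on those zeros.

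**Figure D5:**
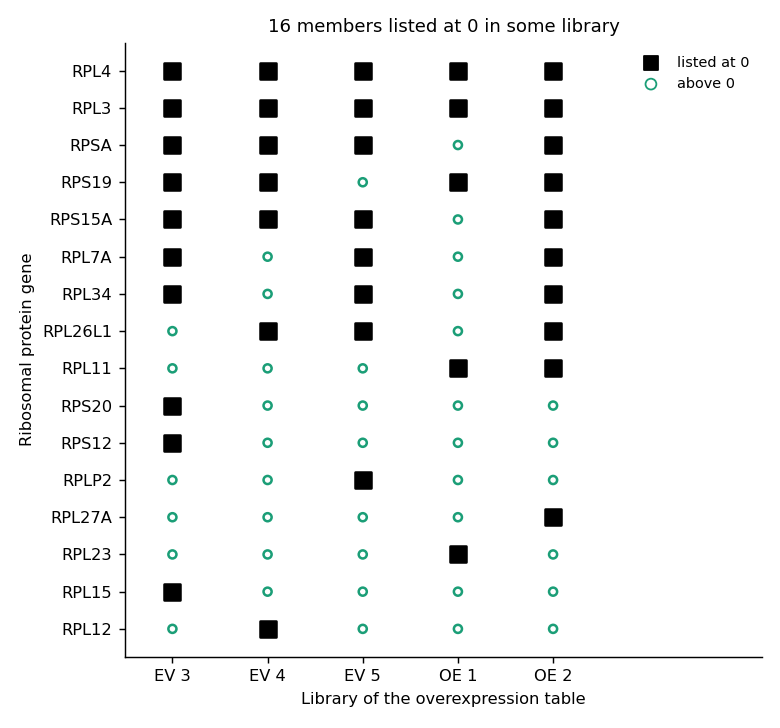
Ribosomal protein genes listed at 0 in at least 1 library of the overexpression table (16 of 18 drawn; filled squares, listed at 0; open circles, above 0). RPL3 and RPL4 are at 0 in all 5 libraries, and RPL11 in both OE libraries and no EV library.

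RPS12 read 2175, 2645, 3940 and 4338 in EV 4, EV 5, OE 1 and OE 2 and was listed at 0 in EV 3. RPL23 was at 0 in OE 1 and 2015 to 3581 elsewhere. RPL7A was above 0 in EV 4 at 2029 and in OE 1 at 2764. RPLP2 was at 0 in EV 5 and otherwise at 1652 and 1490 in EV and at 2331 and 2654 in OE libraries. Others with a 0 included RPL12, RPL15, RPL26L1, RPL27A, RPL34 and RPS20. A value of 0 in a gene that every cell uses may be a failed estimate, so no mean or fold is given for these genes.

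Zeros occurred in both groups and both subunits. They fell in EV libraries only for 5 members, in OE libraries only for 4 and in both groups for 9, with 11, 8 and 8 members at 0 in EV 3, 4 and 5 and 6 and 11 in OE 1 and 2. Members with a 0 made up 25.6% of 39 large subunit genes and 25.9% of 27 small subunit genes. Over all members the share was 25.4%, beside 19.2% of all genes in the table and 18.2% of non-members that reached 100 in some library. The authors' deposited table gave a p under 0.05 to 15 of 71 members and to 12.9% of all genes. Those 15 included RPL3, RPSA, RPS12, RPLP2, RPL23 and RPL34, which had a 0.

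Members with and without a TOP start had similar medians with knockdown. In the knockdown arm the median log2 fold change was 0.17 over 48 genes with one and 0.16 over 19 without, and in the overexpression arm 0.36 over 31 and 0.27 over 13. Of 53 members with values in both arms, 46 were above 0 in both, 4 below 0 with knockdown only (RPS26, RPL7L1, FAU and RPL35), 2 below 0 with overexpression only (RPS23 and RPS25) and 1 in both (RPS27L). The arms share no library, and each was set against its own control.

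Genes outside the ribosome whose messages are known for a TOP start were listed too. The knockdown table held 18 such genes, which include elongation factors, poly(A)-binding protein and nascent chain factors. Of these 15 were above 0, where 54.4% of all genes were. Their median log2 fold change was 0.16, and 0 passed in limma. EEF2, the translocation factor, averaged 1050 ± 51.3 in scramble and 1280 ± 53.5 in shRNA libraries (n = 3 each), and TPT1, the translationally controlled tumour protein, 251 ± 20.4 and 343 ± 64.6, both without overlap. In the overexpression arm 9 had no 0, and 0 of these passed. All 9 were above 0, where 59.4% of genes with no 0 were, with a median of 0.42.

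Dedicated chaperones and importers hold new ribosomal proteins until assembly. In the knockdown arm 6 of 7 were below 0, where 45.6% of all genes were, with a median of -0.24. In limma 1 passed as lower, where 1.28% of all genes did. This was GRWD1, the chaperone of RPL3. It fell from 132 ± 7.68 in scramble to 66.5 ± 13.9 in shRNA libraries (n = 3 each). The difference was -1.001 ± 0.16 (SE) on the log2 scale, with a limma adjusted p of 0.0143. GRWD1 did not pass without scramble 1 (adjusted p = 0.0710) or scramble 2 (0.0665). TSR2, the chaperone of RPS26, averaged 51.0 ± 10.4 and 40.1 ± 1.44, without overlap and with an adjusted p of 0.222. In the overexpression arm 0 of 6 passed, with 3 above and 3 below 0.

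Of 11 genes of the mTORC1, LARP1 and cap-binding pathway, 1 passed in the knockdown arm, where 5.51% of all genes did. EIF4EBP1, a translation repressor that mTORC1 phosphorylates, rose from 224 ± 34.6 in scramble to 389 ± 62.4 in shRNA libraries. The difference was 0.79 ± 0.16 (SE) on the log2 scale, with adjusted p = 0.0275 in limma. EIF4EBP1 passed without shRNA 1 (adjusted p = 0.00617) but not without any of the other libraries (0.0665 to 0.117), nor with no filter (0.0579). The same gene averaged 94.2 ± 11.1 in EV and 151 ± 18.1 in OE libraries, with an adjusted p of 0.312, and 0 of 10 passed there. Among surveillance genes, 0 of 7 passed with knockdown and 1 of 6 with overexpression. Of all genes tested 5.51% and 0.914% did, those with a 0 included. The 1 was HUWE1, a ubiquitin ligase of unassembled ribosomal proteins. It fell from 38.0 ± 0.115 in EV to 18.6 ± 0.435 in OE libraries (limma adjusted p = 0.0344). HUWE1 did not pass in the fit on genes with no 0 (adjusted p = 0.139), nor without EV 3, EV 4, OE 1 or OE 2 (0.137 to 0.206). MYC, the transcription factor that drives ribosome production, averaged 247 ± 14.5 in scramble and 177 ± 37.3 in shRNA libraries without overlap, with an adjusted p of 0.103.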

How the data were processed

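The authors deposited 2 expression tables (5 and 6 libraries) of FPKM type, rounded to 2 decimals for knockdown, made from reads that TopHat aligned, with hg19 as build (submitters' processing notes). The sources used here do not name the quantifier, annotation or gene filter. The deposited p-value columns come from a test that is not described. No counts were used, so depth is unknown, and no interval or floor was computed.

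Groups came from the titles, and the tables, normalised separately, were analysed apart. Values were taken as log2(FPKM + 1), which understates changes of low genes. Genes at 1 or more in at least 3 (knockdown) or 2 (overexpression) libraries were tested with limma-trend, robust (limma 3.58.1, R 4.3.3), two-sided. P-values were adjusted by Benjamini-Hochberg across every gene that entered the fit, and the fit was checked on simulated data. All 83 members passed this filter in the knockdown table and 66 of 71 in the overexpression table, where only the 53 with no 0 have fold changes. Called means an adjusted p under 0.05. SE is limma's standard error.

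Members and lists were chosen with earlier results of these data known. Named members were the called, the 6 highest and 6 lowest log2 fold changes, the 5 highest and 3 lowest levels, genes at 0, paralog pairs and a list by ribosomal role; other genes were PHF19 and list members called. A few genes are not reported here by name, though counts and medians include them. Exceptions are marked, and EEF2, TPT1, TSR2, MYC, RPS29, RPS4X, RPL10, RPL15, RPL35 and the values of EIF4EBP1 with overexpression were chosen after they were seen.

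Equal numbers in the 2 knockdown groups deviated together over 10899 genes (r of 0.341, 0.271 and 0.273, other pairs -0.277 to 0.0935), so the numbers were taken to pair the samples, on the data and not the labels. Deviations of a gene cancel out within a group, so positive values for equal numbers pull those of other pairs down. TOP tracts were read from RefSeq promoters (GRCh38.p14) and coding lengths from GENCODE v29. Alternatives covered scaling, pseudocount, filter, library weights, the replicate block and each library left out.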

Additional observations from a re-analysis of the deposited data

How the results depend on the processing

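The median log2 fold change of the ribosomal protein genes with knockdown was 0.16, kept its sign under every scaling, pseudocount and filter tried, and was below 0 with library weights (-0.028), without scramble 3 (-0.017) and without both scramble 3 and shRNA 1 (-0.13, chosen after seeing the data); leaving out each library gave -0.017 to 0.24. Members called with knockdown were 0, but 3 with the replicate block, 3 with library weights, 1 after quantile normalisation, 1 at an adjusted p of 0.1 and 2 without both libraries. All genes called were 601, against 1295 with the replicate block, 3161 with library weights, 269 with no filter, 1002 without both libraries and 54 to 629 with each library left out. The large minus small subunit difference of 0.04 was 0.0048 without both libraries and -0.021 to 0.069 with each left out. With overexpression the member median of 0.36 was -0.0046 after quantile normalisation, 0.18 after scaling to the non-member sum and 0.28 with median-of-ratios scaling. Members called were 0, but 29 with library weights and 0 to 3 with each library left out (3 without EV 5). All genes called were 94, against 36 with a filter at 5, 1729 with library weights, 61 with a pseudocount of 0.1, 0 with only genes without a 0 and 107 to 350 with each library left out. The large minus small difference of 0.07 was 0.020 with library weights, 0.15 after quantile normalisation and 0.061 to 0.12 with each library left out. The causes were not tested.

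Single members turned sign as follows, none of them called. For knockdown, log2 fold changes with library weights were RPL11 -0.14, RPL17 -0.0022, RPL22 -0.025, RPL26 -0.0066, RPL38 -0.086, RPL39 -0.16, RPL5 -0.028, RPL7 -0.21, RPS14 -0.0065, RPS19 -0.039, RPS27A -0.12, RPSA -0.046; after quantile normalisation they were RPL7 -0.087; with each library left out they ranged for RPL11 -0.087 to 0.20, RPL22 -0.040 to 0.37, RPL38 -0.26 to 0.41, RPL39 -0.093 to 0.39, RPL7 -0.055 to 0.17, RPLP2 -0.036 to 0.35, RPS19 -0.077 to 0.20, RPS27A -0.11 to 0.20, RPS27L -0.35 to 0.17, RPSA -0.036 to 0.19. For overexpression they were, after quantile normalisation, RPL10 -0.26, RPL41 -0.10, RPL7 -0.12, RPL7L1 -0.13, RPS14 -0.016, RPS2 -0.39, RPS26 -0.027, RPS27 -0.11, RPS28 -0.043, RPS6 -0.10; with median-of-ratios scaling, RPL10 -0.041, RPL41 -0.046, RPL7L1 -0.033, RPS2 -0.036; with scaling to the non-member sum, RPL10 -0.15, RPL41 -0.15, RPL7L1 -0.14, RPS2 -0.15, RPS26 -0.031; with library weights, RPL7L1 -0.25, RPS23 0.079, RPS27L 0.0034; and with each library left out, RPL10 -0.23 to 0.30, RPL41 -0.030 to 0.084, RPL7L1 -0.26 to 0.20, RPS2 -0.023 to 0.14, RPS26 -0.067 to 0.31. Of the named members 20 of 34 with knockdown and 14 of 26 with overexpression kept 1 sign throughout. Apart from the members named beside their results, the replicate block changed no member's call. Where an arm kept 1 OE library, it was assumed to vary like the EV libraries.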

Other observations

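The mitochondrial ribosome translates the few messages of the mitochondrial genome. Its genes showed the opposite sign to the cytosolic ones with knockdown when all libraries entered the fit without weights. Of 77 mitochondrial ribosomal protein genes, a list chosen after the results were seen, 73 had a log2 fold change below 0, where 45.6% of all genes did, with a median of -0.24. In limma 3 passed as lower, where 1.28% of all genes did, and 0 as higher. The 3, named after their values were seen, were MRPS28, which averaged 43.3 ± 6.85 in scramble and 24.2 ± 1.27 in shRNA libraries (SD, n = 3 each, adjusted p = 0.0168), MRPL47 at 66.7 ± 6.84 and 42.7 ± 5.56 (adjusted p = 0.0309) and MRPS18A at 75.5 ± 0.815 and 55.5 ± 2.60 (adjusted p = 0.0471). The median stayed below 0 without scramble 3 (-0.33), without shRNA 1 (-0.19), without both (-0.30) and with library weights (-0.27). The cytosolic median was below 0 too without scramble 3 (-0.02), without both (-0.13) and with library weights (-0.03), so the signs did not differ there. Without shRNA 1 the cytosolic median was 0.04. The count of mitochondrial genes passing as lower was 0 without scramble 1, 0 without scramble 2, 1 with no filter and 1 without shRNA 3. Of all genes, 4, 1, 50 and 26 passed as lower in those fits. The count was 6 with the replicate block, 16 without both libraries and 32 with library weights. Of all genes, 401 (3.68%), 308 and 1153 (10.6%) passed as lower there, so the counts rose with those of all genes. Across the libraries left out in turn the mitochondrial median ran from -0.33 to -0.15. With overexpression, 35 of 56 such genes with no 0 were above 0, with a median of 0.08. That median was -0.05 after quantile normalisation, 0.01 with median-of-ratios scaling and -0.02 with library weights. It was -0.10 after scaling to the sum outside the cytosolic genes and -0.09 without EV 5. It was 0.21 without EV 3, 0.15 without OE 1 and 0.02 without OE 2. In limma 0 passed. With library weights 4 passed as higher and 2 as lower, where 1232 and 497 of the 10279 genes tested did.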
